A study of Homo sapiens with 6 samples.

Results

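The genes described here encode the last steps of oxidative phosphorylation: cytochrome bc1 (complex III), cytochrome c, cytochrome c oxidase (complex IV) and ATP synthase. Members were the rows of the count table whose symbol holds no hyphen and starts with UQCR, ATP5 or COX4 to COX8, together with CYC1, CYCS, MT-CYB, MT-CO1, MT-CO2, MT-CO3, MT-ATP6 and MT-ATP8. The rule found 53 of 19863 rows: 11 of complex III, 1 for cytochrome c, 20 of complex IV and 21 of ATP synthase. Of these, 47 are encoded in the nucleus and 6 in the mitochondrial genome. The cells were NGP, a human neuroblastoma line with amplified MYCN, and every library came from this 1 line. Cells were exposed for 12 h either to OTSSP167 at 60 nM, a kinase inhibitor developed against MELK, or to the solvent DMSO. Each group has 3 RNA-seq libraries. Whether these stem from independent cultures is not in the labels, and p-values therefore reflect only library-to-library spread, which may be technical.

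Complex III passes electrons from ubiquinol to cytochrome c, complex IV passes them from cytochrome c to oxygen, and both move protons out of the matrix. ATP synthase lets protons back through its membrane part (Fo), which turns a rotor of c subunits and drives ATP formation in its catalytic head (F1). Cytochrome b of complex III, the core of complex IV and 2 membrane subunits of ATP synthase are made from mitochondrial DNA, and the other subunits are made in the cytosol from nuclear genes and imported.

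Library totals were 46230392 to 50810126 counts with DMSO and 36401828 to 57460375 with OTSSP167. MYCN was at 7544 CPM (counts per 1000000 counts of the library) with DMSO and at 4495 CPM with OTSSP167. Of 8 markers of adrenergic neuroblastoma, 6 reached 10 CPM in a group, while TH, a defining enzyme of catecholamine synthesis, stayed at or under 0.41 CPM in every library. Summed levels of these 8 markers were 1776 to 2060 CPM with DMSO and 1910 to 2013 with OTSSP167, while single markers moved in opposite directions: mean levels in DMSO and OTSSP167 were 354 and 820 CPM for GATA3, 331 and 93.5 for CHGA, 47.9 and 21.4 for ISL1 and 8.89 and 0.899 for DBH. The 4 Schwann and glial markers summed to at most 0.423 CPM in any library, with SOX10 at 0. Of 4 fibroblast and endothelial markers, 2 reached 10 CPM, and their sum went from 83.5 to 97.4 CPM with DMSO to 34.8 to 35.5 CPM with OTSSP167. Of 4 immune markers, CD14 alone reached 10 CPM, with 0.391 CPM in DMSO and 14.2 CPM in OTSSP167, while CD3E was at 0 and PTPRC at or under 0.306 CPM. The part of other cell types in the results below was not tested. In bulk RNA, fewer cells of a type and less RNA per cell cannot be told apart.

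Most of these genes were lower after OTSSP167, but the fall was uneven, and subunits of the same complex moved in opposite directions. The low-count filter left 49 of 53 members to test. By edgeR's quasi-likelihood test with a Benjamini-Hochberg adjusted p under 0.05 over 14402 genes, 29 of the 49 fell, 7 rose and 13 did not pass. Among all genes tested, 22.3% fell and 23.8% rose, against 59.2% and 14.3% of the members. The median log2 fold change was -0.23 over the 49 members and 0.01 over all genes tested. Groups did not overlap for 41 of the 49: 32 members had all OTSSP167 libraries below all DMSO libraries (29.6% of all genes tested) and 9 had all above (30.8%). Scaling by upper quartiles raised the median of all genes to 0.11, and the split became 23 lower and 10 higher.

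Most changes were small. A change beyond 1.5-fold passed edgeR's test for 9 lower members (9.03% of all genes tested) and 2 higher ones (10.6%). The 9 were UQCRC1, UQCRC2, UQCRQ, CYCS, COX6C, COX7A2, COX7B, ATP5G1 and ATP5J2, and the 2 were UQCRB and COX8C. For 5 of them, UQCRC2, UQCRQ, COX6C, ATP5G1 and ATP5J2, the fall exceeded 2 on the log2 scale, which 2.56% of all genes tested did. No other member that passed fell by more than 0.97, so these 5 stood apart from the rest. Without these 5, the remaining nuclear-encoded subunits of the 3 complexes together with CYCS, 30 genes in all, had a median of -0.22. Of these, 18 were lower, 5 higher and 7 not passed. For comparison, of 46 rows tested with a complex I symbol (NDUF or MT-ND), 23 fell and 2 rose, with a median of -0.21. Of these 46, 9 fell beyond 1.5-fold and 4 fell by more than 2 on the log2 scale. They include NDUFA4, taken in by its symbol alone, which is also in the complex IV assembly list below. The difference between the lists was not tested.

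**Figure D1:**
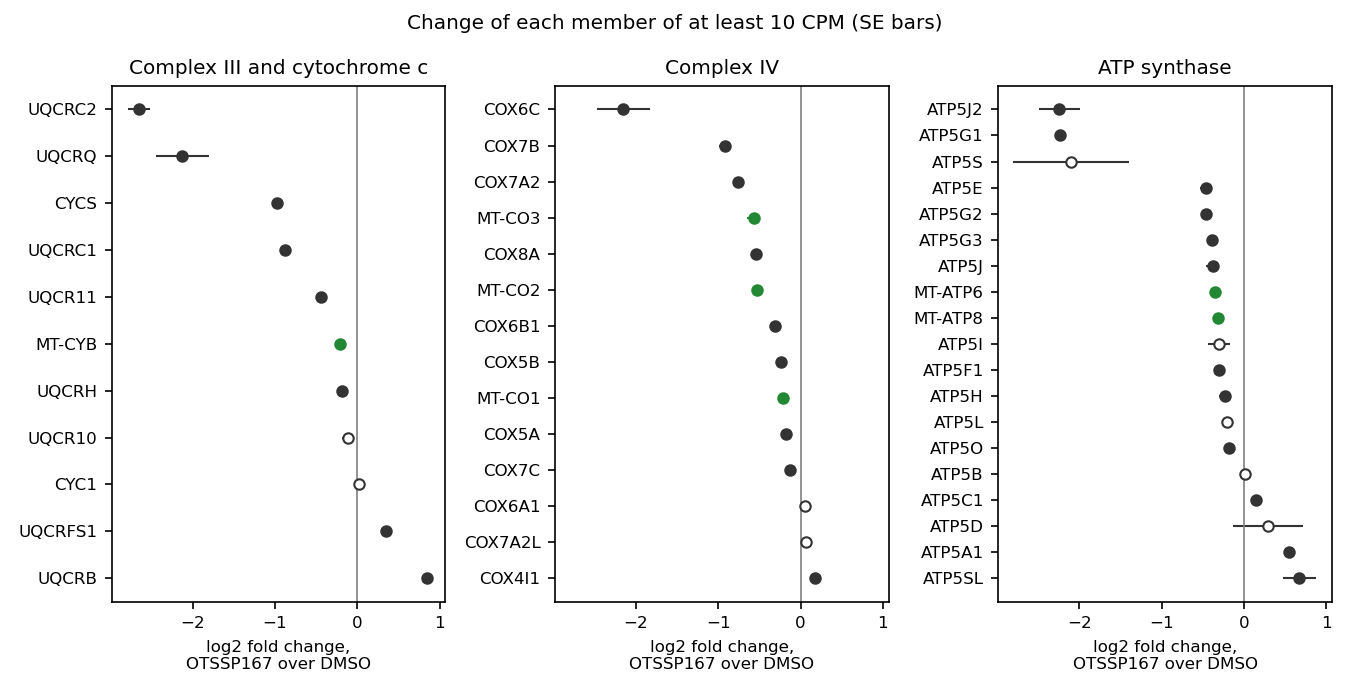
Log2 fold change of each member of at least 10 CPM in a group, OTSSP167 over DMSO, with standard errors, for complex III with cytochrome c, complex IV and ATP synthase. Green points are mitochondrially encoded, dark points nuclear-encoded, and open points did not pass edgeR's test; UQCRC2, UQCRQ, COX6C, ATP5J2 and ATP5G1 lie below -2 while UQCRB lies at 0.84.

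**Figure D2:**
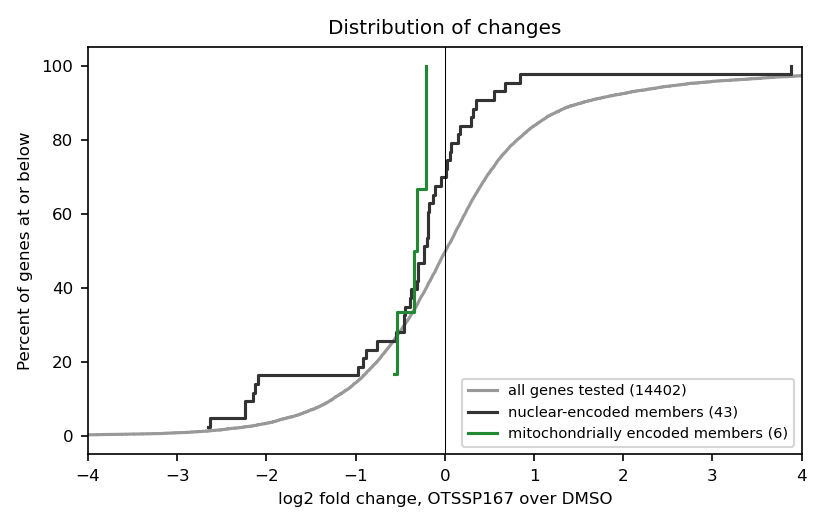
Cumulative percent of genes at or below each log2 fold change for all 14402 genes tested, the 43 tested nuclear-encoded members and the 6 mitochondrially encoded members. The nuclear-encoded curve (median -0.23) lies above that of all genes (median 0.01) around 0, and the mitochondrially encoded members span -0.57 to -0.21.

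Promoters of the nuclear-encoded members were read from RefSeq (GRCh38.p14), in which 34 of 47 were found by symbol or synonym. Each window has 300 bases, 250 before the gene's start and 50 after it. The ones printed belong to the subunits that fell by more than 2 on the log2 scale, where such a window could be shown, and to the 2 subunits that rose most where one could be shown. Capitals mark any match, on either strand, to the letters of 6 motifs known from promoters of respiratory genes: NRF1 (GCGCA, any base, GCGC), ETS (CCGGAAG), CRE (TGACGTCA), E-box (CACGTG), YY1 (AAGATGGC) and Sp1 (GGGCGG).
UQCRC2 (chr16:21953111-21953410, plus strand): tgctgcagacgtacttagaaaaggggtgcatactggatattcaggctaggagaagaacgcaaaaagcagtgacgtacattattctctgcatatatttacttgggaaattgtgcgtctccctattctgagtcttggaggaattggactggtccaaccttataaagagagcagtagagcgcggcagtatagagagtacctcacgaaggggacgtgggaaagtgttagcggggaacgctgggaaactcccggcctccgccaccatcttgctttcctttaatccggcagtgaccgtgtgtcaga
ATP5G1, listed as ATP5MC1 in RefSeq (chr17:48892537-48892836, plus strand): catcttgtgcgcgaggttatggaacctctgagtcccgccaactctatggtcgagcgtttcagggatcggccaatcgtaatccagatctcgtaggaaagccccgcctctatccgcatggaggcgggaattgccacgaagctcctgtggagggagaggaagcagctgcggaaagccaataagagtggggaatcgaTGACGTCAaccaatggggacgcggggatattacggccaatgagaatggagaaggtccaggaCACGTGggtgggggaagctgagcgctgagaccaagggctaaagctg
UQCRQ (chr5:132866392-132866691, plus strand): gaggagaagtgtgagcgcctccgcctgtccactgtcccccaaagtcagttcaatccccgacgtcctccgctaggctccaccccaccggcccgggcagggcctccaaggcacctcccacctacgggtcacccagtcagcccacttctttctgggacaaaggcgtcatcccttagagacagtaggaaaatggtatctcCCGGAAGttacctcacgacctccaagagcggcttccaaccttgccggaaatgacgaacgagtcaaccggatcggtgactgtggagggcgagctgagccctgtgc
ATP5A1, listed as ATP5F1A in RefSeq (chr18:46104178-46104477, minus strand): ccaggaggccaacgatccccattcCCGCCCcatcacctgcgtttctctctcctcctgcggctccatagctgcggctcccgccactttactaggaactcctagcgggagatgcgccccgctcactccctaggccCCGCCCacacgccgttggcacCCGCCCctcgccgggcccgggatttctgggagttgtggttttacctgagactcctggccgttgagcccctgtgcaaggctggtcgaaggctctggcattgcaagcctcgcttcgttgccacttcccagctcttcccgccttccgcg
UQCRFS1 (chr19:29213102-29213401, minus strand): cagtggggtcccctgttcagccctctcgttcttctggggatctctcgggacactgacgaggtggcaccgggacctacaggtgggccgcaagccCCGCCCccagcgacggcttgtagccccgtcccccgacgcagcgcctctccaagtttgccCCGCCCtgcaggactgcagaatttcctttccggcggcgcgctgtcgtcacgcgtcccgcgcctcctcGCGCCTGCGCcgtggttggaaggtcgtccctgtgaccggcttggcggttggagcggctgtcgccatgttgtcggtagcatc

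The first 3 windows belong to genes that fell and the last 2 to genes that rose. The UQCRC2 window held none of the 6 motifs. The ATP5G1 window held the CRE and the E-box, which do not overlap, and the UQCRQ window held the ETS letters once. The Sp1 letters occurred in both windows of genes that rose, and that of UQCRFS1 also held the NRF1 letters. Over the 34 member promoters, the ETS letters occurred in 35.3% (10.7% of all 27305 promoters in the table) and the NRF1 letters in 23.5% (6.28% of all). YY1 letters were found in 11.8% of member promoters (3.03% of all), CRE letters in 5.88% (1.98%), E-box letters in 11.8% (7.43%) and Sp1 letters in 52.9% (44.6%). By call, NRF1 letters occurred in 3 of 6 members that rose, 3 of 20 that fell and 2 of 6 that did not pass. In the same order, ETS letters occurred in 1, 8 and 3 members, YY1 letters in 0, 4 and 0, and Sp1 letters in 4, 11 and 3. CRE letters occurred in 0, 1 and 1 and E-box letters in 0, 3 and 1. The members with NRF1 letters that rose include COX8C, at most 1.07 CPM in any library. These counts are small and were not tested, and a match is not a site of binding.

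In complex III, both core protein genes and the small subunit gene UQCRQ fell, while the genes for the Rieske protein and for another small subunit, UQCRB, rose. UQCRC2 (chr16:21952660-21983660, plus strand, GENCODE 29 on GRCh38) encodes core protein 2, which with core protein 1 forms the large matrix-facing part of the complex. It was at 175, 185 and 161 CPM with DMSO and 32.0, 27.0 and 23.9 CPM with OTSSP167. The groups were far apart, and the level was 6.29-fold lower (log2 fold change -2.65, SE 0.13, edgeR adjusted p = 0.000103). UQCRC1, which encodes core protein 1, was at 127, 126 and 127 CPM with DMSO and 72.5, 66.8 and 67.6 CPM with OTSSP167. All treated libraries were below all controls (log2 -0.88, SE 0.05, edgeR adjusted p = 0.000178). Within a library, UQCRC1 had 0.732 ± 0.053 counts per UQCRC2 count with DMSO and 2.52 ± 0.28 with OTSSP167 (SD, n = 3).

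UQCRQ (chr5:132866560-132868031, plus strand), a small subunit that contacts cytochrome b, was at 74.2, 106 and 69.9 CPM with DMSO and 21.5, 23.7 and 11.9 CPM with OTSSP167. The libraries within each group were spread more widely than for UQCRC2 but did not overlap, and the fall was 2.13 (log2, SE 0.32, edgeR adjusted p = 0.0042). UQCRQ shares 325 bp with GDF9 on the opposite strand, and GDF9 had 1.62 CPM with DMSO and 0.572 CPM with OTSSP167. UQCRB (chr8:96225920-96235634, minus strand), a small subunit near the ubiquinone-binding part, went the other way. It was at 88.5, 92.0 and 89.2 CPM with DMSO and 159, 165 and 160 CPM with OTSSP167. This rise of 1.79-fold (log2 0.84, SE 0.04, edgeR adjusted p = 9.41e-05) was the largest among the nuclear-encoded subunits of the 3 complexes, tissue isoforms left out. Counts of UQCRB per UQCRC2 count were 0.505, 0.497 and 0.553 with DMSO and 4.98, 6.09 and 6.70 with OTSSP167.

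UQCRFS1, the Rieske iron-sulphur protein, was at 87.1, 91.1 and 90.9 CPM with DMSO and 119, 111 and 113 CPM with OTSSP167. All treated libraries were above all controls (log2 0.35, SE 0.05, edgeR adjusted p = 0.00349). CYC1, cytochrome c1, which hands electrons to cytochrome c, was at 206 ± 7.79 CPM with DMSO and 209 ± 6.54 CPM with OTSSP167 (SD, n = 3), a log2 fold change of 0.02 with SE 0.04 (edgeR adjusted p = 0.696). UQCR11 fell from 144 ± 4.28 to 106 ± 4.18 CPM (log2 -0.44, edgeR adjusted p = 0.00148), and the hinge protein gene UQCRH from 401 ± 10.3 to 352 ± 7.0 CPM (log2 -0.19, edgeR adjusted p = 0.00499; -0.09 and 0.0535 by upper quartiles). UQCR10 did not pass (log2 -0.11, edgeR adjusted p = 0.223). UQCRHL, an intronless copy of UQCRH, was at 2.54 ± 1.23 and 3.16 ± 0.937 CPM, and its transcript shares an identical run of 178 bp with UQCRH, so reads may have been divided between them in an unknown way.

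CYCS encodes cytochrome c, the soluble carrier between complexes III and IV and a trigger of apoptosis once released from mitochondria. Its level was 220, 226 and 209 CPM with DMSO and 110, 116 and 109 CPM with OTSSP167. The 2 groups were separate and the mean was 1.96-fold lower (log2 -0.97, SE 0.05, edgeR adjusted p = 9.83e-05).

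**Figure D3:**
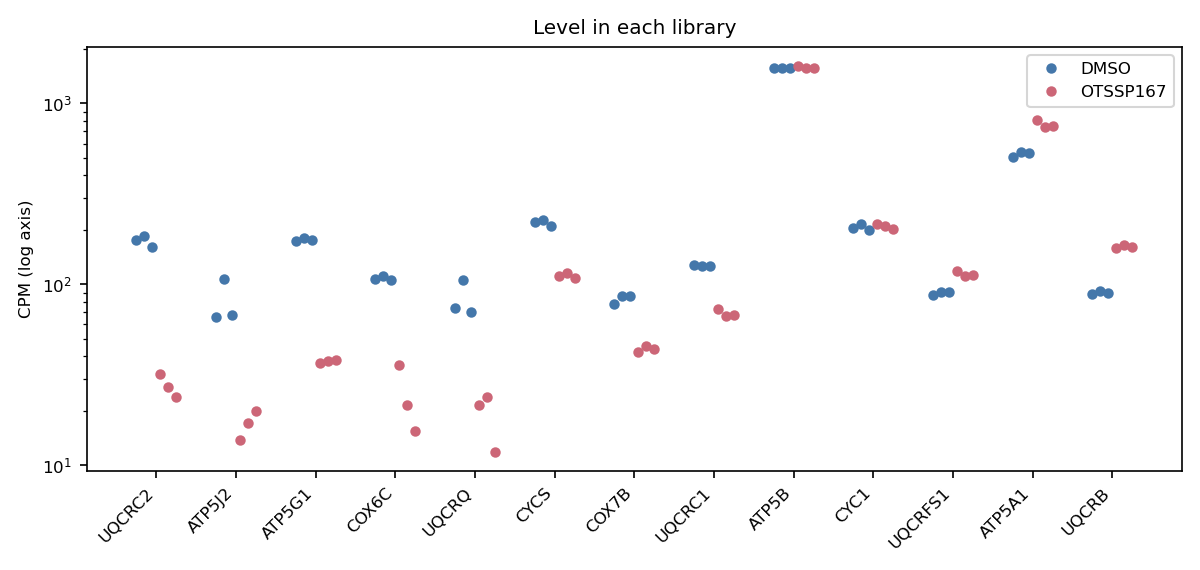
CPM of 13 members in each library on a log axis, blue for the 3 DMSO and red for the 3 OTSSP167 libraries, in order of log2 fold change. UQCRC2 falls from between 161 and 185 to between 23.9 and 32.0 CPM, ATP5B stays between 1566 and 1605 CPM, and UQCRB rises to 159 to 165 CPM.

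Of the 10 general nuclear-encoded subunits of complex IV, 8 fell, 1 rose and 1 did not pass. COX6C (chr8:99873200-99894062, minus strand), a small membrane subunit, fell most. It was at 107, 110 and 105 CPM with DMSO and 35.7, 21.4 and 15.4 CPM with OTSSP167. The controls were tight while the treated libraries differed up to 2.31-fold among themselves, and the fall was 2.15 (log2, SE 0.32, edgeR adjusted p = 0.00397). COX6C shares 4381 bp with VPS13B on the opposite strand. VPS13B was at 26.0, 51.9 and 49.3 CPM with DMSO and 62.1, 16.5 and 16.0 CPM with OTSSP167. Its highest treated library was replicate 1, as for COX6C, and how reads in the shared stretch were assigned is not known.

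COX7B, needed for assembly of the complex, was at 77.9, 86.0 and 85.6 CPM with DMSO and 42.4, 45.7 and 44.1 CPM with OTSSP167, a fall of 0.92 (log2, SE 0.07, edgeR adjusted p = 0.000387). COX7A2, the form of subunit 7A found in most tissues, was at 96.3, 101 and 106 CPM with DMSO and 59.0, 59.1 and 60.5 CPM with OTSSP167, a fall of 0.76 (log2, SE 0.06, edgeR adjusted p = 0.000369). COX8A was at 177, 176 and 165 CPM with DMSO and 121, 123 and 112 CPM with OTSSP167, a fall of 0.55 (log2, SE 0.06, edgeR adjusted p = 0.000977). In none of these 3 did the groups overlap.

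The other falls in complex IV were smaller: COX6B1 by 0.31, COX5B by 0.23, COX5A by 0.17 and COX7C by 0.13 on the log2 scale. Their edgeR adjusted p-values lay between 0.011 for COX6B1 and 0.0281 for COX5B. COX5A, COX5B and COX7C no longer passed with upper quartile scaling, and COX5B and COX7C also lost the call when single libraries were left out. For COX5B these were DMSO replicates 1 and 2 and each OTSSP167 library (adjusted p between 0.0507 and 0.0725), and for COX7C replicates 1 and 2 of both groups (between 0.0618 and 0.0672). COX4I1, the general form of subunit 4 and the site of ATP's inhibition of the enzyme, rose from 332 ± 4.78 to 374 ± 10.7 CPM (log2 0.17, SE 0.03, edgeR adjusted p = 0.00679). COX6A1 was at 194 ± 3.44 and 202 ± 5.15 CPM (log2 0.06, edgeR adjusted p = 0.248), and passed with upper quartile scaling (log2 0.16, adjusted p = 0.0152). COX7A2L, which is not a subunit of the lone enzyme but joins complexes III and IV into a supercomplex, was at 147 ± 5.96 and 154 ± 4.73 CPM (log2 0.07, edgeR adjusted p = 0.295; 0.17 and 0.0354 by upper quartiles).

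Alternative forms of complex IV subunits, known from lung, heart, muscle or testis, were at or near 0. COX6A2 and COX7B2 had 0 counts in all 6 libraries, which allows up to 3 counts, or 0.0108 CPM over the libraries. COX6B2 was at 0.282 and 0.276 CPM and COX7A1 at 0.546 and 0.481 CPM in DMSO and OTSSP167, with overlapping groups. COX4I2, the form of subunit 4 known from lung, had 62 counts over the DMSO libraries and 8 over the OTSSP167 libraries, where 2 libraries were at 0 (edgeR adjusted p = 0.16, and 0.0142 without OTSSP167 replicate 3). COX8C, known from testis, had 9 counts over the DMSO libraries and 128 over the OTSSP167 libraries. That is 0.0977, 0.0846 and 0 CPM against 0.944, 1.07 and 0.819 CPM, a log2 fold change of 3.88 with SE 0.83 (edgeR adjusted p = 0.0133). In a fit with a term for replicate number, COX8C did not pass (edgeR adjusted p = 0.0547). COX8C lies wholly within UNC79 on the same strand over 1166 bp, and UNC79 was at 1.97, 18.8 and 1.14 CPM with DMSO and 11.1, 12.0 and 20.5 CPM with OTSSP167, so reads of the 2 genes cannot be told apart here.

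In ATP synthase, the alpha subunit gene ATP5A1 rose, while all genes of the rotor's c subunit and of the peripheral stalk fell. Of 5 F1 subunit genes, 2 rose, 1 fell and 2 did not pass, against 23.8% of all genes tested that rose and 22.3% that fell. The 2 that rose were ATP5A1 and ATP5C1, and the call of ATP5C1 was lost in several fits without 1 library, as given below. The summed level of the 5 genes was 2484 ± 37.5 CPM with DMSO and 2767 ± 112 CPM with OTSSP167 (SD, n = 3), of which ATP5A1 made up 524 and 766 CPM. All 3 c-subunit genes of the rotor fell, with sums of 631 ± 24.0 and 376 ± 6.33 CPM, as did all 4 genes of the peripheral stalk, with sums of 535 ± 13.6 and 448 ± 2.82 CPM. The difference between these parts of the enzyme was not tested.

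ATP5A1 (current symbol ATP5F1A, chr18:46080248-46104334, minus strand) encodes the alpha subunit of the head. It was at 505, 537 and 530 CPM with DMSO and 809, 745 and 746 CPM with OTSSP167, and rose by 1.46-fold (log2 0.55, SE 0.04, edgeR adjusted p = 0.000448). ATP5B, the catalytic beta subunit and the most abundant nuclear-encoded member in counts, was at 1569, 1566 and 1566 CPM with DMSO and 1605, 1569 and 1574 CPM with OTSSP167. Alpha and beta subunits occur in equal numbers in the enzyme, and counts of ATP5A1 per ATP5B count were 0.322, 0.343 and 0.338 with DMSO and 0.504, 0.475 and 0.474 with OTSSP167.

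For ATP5B the log2 fold change was 0.01 with SE 0.01 (edgeR adjusted p = 0.447), and with upper quartile scaling it was 0.12 (adjusted p = 0.00163). ATP5C1, the gamma subunit that turns inside the head, went from 156 ± 2.96 to 173 ± 4.77 CPM (log2 0.15, edgeR adjusted p = 0.0251). That call did not hold in the fits without DMSO replicate 1, 2 or 3 (adjusted p = 0.0852, 0.0541 and 0.0822) or without OTSSP167 replicate 1 or 2 (0.0692 and 0.06). ATP5D, the delta subunit, was at 186, 82.7 and 167 CPM with DMSO and 218, 218 and 98.1 CPM with OTSSP167. One library in each group lay far below its fellows, and the groups overlapped (edgeR adjusted p = 0.614). ATP5E, the epsilon subunit, fell from 91.3 ± 4.37 to 66.4 ± 3.13 CPM (log2 -0.46, edgeR adjusted p = 0.00351).

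The c subunit, which forms the rotor ring, is encoded by 3 genes whose products differ only in the import signal that is removed on the way into the mitochondrion. ATP5G1 (current symbol ATP5MC1, chr17:48892765-48895871, plus strand) was at 174, 180 and 175 CPM with DMSO and 36.8, 37.5 and 38.2 CPM with OTSSP167. The groups were far apart and each was even, and the level was 4.71-fold lower (log2 -2.23, SE 0.05, edgeR adjusted p = 1.18e-05). ATP5G2 was at 253, 280 and 243 CPM with DMSO and 186, 192 and 188 CPM with OTSSP167 (log2 -0.46, SE 0.06, edgeR adjusted p = 0.00234). ATP5G3 was at 193, 199 and 197 CPM with DMSO and 147, 147 and 156 CPM with OTSSP167 (log2 -0.39, SE 0.04, edgeR adjusted p = 0.00111). All 3 fell without overlap, and ATP5G1 fell much more than its sister genes.

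The make-up of c-subunit counts within each library does not depend on any scaling between libraries. ATP5G1 made up 28.0, 27.4 and 28.5% of c-subunit counts with DMSO and 9.96, 9.96 and 10% with OTSSP167. The share of ATP5G2 went from 41.0 ± 1.5 to 50.2 ± 0.97% and that of ATP5G3 from 31.1 ± 0.95 to 39.9 ± 0.94% (SD, n = 3). Each of these differences had p = 0.1 in a 2-sided exact permutation test, the smallest that 3 against 3 allows, and 0.133 after Benjamini-Hochberg adjustment over 8 such tests. The longest identical runs between their transcripts were 17 bp for ATP5G1 with ATP5G2, 16 bp for ATP5G1 with ATP5G3 and 38 bp for ATP5G2 with ATP5G3.

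**Figure D4:**
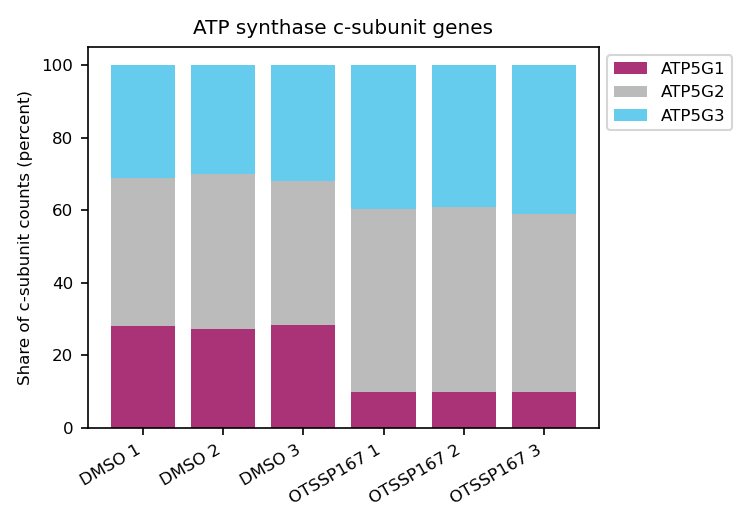
Share of c-subunit counts, in percent of their sum, from ATP5G1, ATP5G2 and ATP5G3 in each of the 6 libraries. ATP5G1 takes 27.4 to 28.5% with DMSO and 9.96 to 10% with OTSSP167.

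ATP5J2 (current symbol ATP5MF, chr7:99448475-99466331, minus strand), the membrane subunit f that helps pair the enzyme into dimers, was at 66.1, 107 and 67.7 CPM with DMSO and 13.8, 17.1 and 19.8 CPM with OTSSP167. One control library stood above the other two, and the groups were far apart (log2 -2.24, SE 0.25, edgeR adjusted p = 0.00156). ATP5J2 overlaps PTCD1 on the same strand, which rose from 62.8 to 101 CPM (log2 0.68, edgeR adjusted p = 0.00178), and CPSF4 on the opposite strand, which fell from 89.7 to 33.2 CPM (log2 -1.43, edgeR adjusted p = 0.000173). How reads in the shared stretches were assigned is not given in the sources used here. The readthrough row ATP5J2-PTCD1, left out by the rule on hyphens, held 104, 0 and 0 counts with DMSO and 20, 6 and 10 with OTSSP167.

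The peripheral stalk, which holds the head still against the rotor, fell by 0.18 to 0.38 on the log2 scale. In it, ATP5F1 (subunit b) went from 180 ± 5.04 to 147 ± 7.65 CPM, ATP5H (subunit d) from 86.4 ± 1.7 to 73.5 ± 4.47 CPM, ATP5J (F6) from 69.9 ± 5.32 to 53.8 ± 2.83 CPM and ATP5O (OSCP) from 198 ± 6.85 to 174 ± 1.18 CPM. Their edgeR adjusted p-values were 0.00632, 0.0323, 0.0155 and 0.0117. The call of ATP5H was lost without each single library other than OTSSP167 replicate 2, with adjusted p between 0.0518 and 0.0818, and upper quartile scaling ended the calls of ATP5H and ATP5O (adjusted p = 0.157 and 0.112). The membrane subunits e and g, ATP5I and ATP5L, had log2 fold changes of -0.30 and -0.20 that did not pass (edgeR adjusted p = 0.113 and 0.0702). ATP5I passed without OTSSP167 replicate 2 (adjusted p = 0.0446), and ATP5L passed by DESeq2 (adjusted p = 0.0304).

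Of the rows that carry an ATP5 symbol without being subunits, ATP5S (now DMAC2L, once called factor B) was at 26.8, 7.51 and 54.4 CPM with DMSO and 6.79, 7.05 and 6.88 CPM with OTSSP167. Control libraries were spread over 7.25-fold while the treated ones were nearly equal, and the difference did not pass (log2 -2.10, SE 0.70, edgeR adjusted p = 0.0554; 0.00499 by DESeq2 and 0.0065 without DMSO replicate 2). ATP5SL (now DMAC2), an assembly factor of complex I despite its name, was at 55.6, 46.0 and 42.2 CPM with DMSO and 57.1, 82.5 and 90.0 CPM with OTSSP167 (log2 0.67, SE 0.20, edgeR adjusted p = 0.0424). It did not pass in 5 of the 6 fits that left out 1 library (adjusted p between 0.055 and 0.127): those without DMSO replicate 1, 2 or 3 and without OTSSP167 replicate 2 or 3. ATP5L2 and ATP5EP2, copies of ATP5L and ATP5E, had 4 and 2 counts in all and were not tested.

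The 6 mitochondrially encoded members all fell, by 0.21 to 0.57 on the log2 scale, with a median of -0.33. In each case every OTSSP167 library lay below every DMSO library, and none of the falls passed the test for a change beyond 1.5-fold. Together these 6 rows held 2.81 ± 0.08% of all counts with DMSO and 2.24 ± 0.019% with OTSSP167 (SD, n = 3). Nuclear-encoded members went from 0.721 ± 0.0038 to 0.645 ± 0.0086% of all counts. Their sum per 100 counts of the mitochondrially encoded members was 26.5, 25.7 and 24.9 with DMSO and 28.8, 29.1 and 28.4 with OTSSP167.

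MT-CO2 and MT-CO3 fell most and MT-CO1 and MT-CYB least. MT-CO1, the subunit that holds the oxygen-reducing site, was at 11946, 12161 and 12567 CPM with DMSO and 10650, 10572 and 10434 CPM with OTSSP167 (log2 -0.21, SE 0.02, edgeR adjusted p = 0.000892). MT-CO2, which accepts electrons from cytochrome c, was at 3620, 3859 and 3862 CPM with DMSO and 2646, 2576 and 2601 CPM with OTSSP167 (log2 -0.54, SE 0.03, edgeR adjusted p = 0.000145). MT-CO3 was at 3122, 3694 and 3641 CPM with DMSO and 2486, 2333 and 2237 CPM with OTSSP167 (log2 -0.57, SE 0.08, edgeR adjusted p = 0.00284). For all 3, treated and control libraries were separate.

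MT-CYB, the cytochrome b of complex III, was at 2478, 2486 and 2574 CPM with DMSO and 2182, 2171 and 2155 CPM with OTSSP167 (log2 -0.21, SE 0.02, edgeR adjusted p = 0.00054). MT-ATP6, the proton-channel subunit a of ATP synthase, was at 3566, 3702 and 3769 CPM with DMSO and 2923, 2904 and 2847 CPM with OTSSP167 (log2 -0.35, SE 0.02, edgeR adjusted p = 0.000281). MT-ATP8, a small membrane subunit, was at 2321, 2411 and 2390 CPM with DMSO and 1903, 1887 and 1927 CPM with OTSSP167 (log2 -0.32, SE 0.02, edgeR adjusted p = 0.000158). Per kilobase of gene, MT-ATP8 was highest at 11469 CPM with DMSO and 9206 with OTSSP167, followed by MT-CO1 at 7928 and 6843. MT-CYB was lowest at 2202 and 1901, and MT-ATP6 was at 5402 and 4246. MT-ATP8 spans only 207 bp, 46 of them shared with MT-ATP6. How reads there were assigned is not known, so the rank of MT-ATP8 is uncertain.

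The 2 strands of mitochondrial DNA are transcribed as long precursors and cut into single messages, and all 6 members lie on the same strand. Within a library, MT-CYB had 0.206 counts per MT-CO1 count in both groups (2-sided exact permutation p = 0.9). MT-CO2 went from 0.309 ± 0.0073 to 0.247 ± 0.003 counts per MT-CO1 count, MT-CO3 from 0.285 ± 0.022 to 0.223 ± 0.0097 and MT-ATP6 from 0.301 ± 0.0031 to 0.274 ± 0.001 (SD, n = 3). Each of these 3 had p = 0.1 by exact permutation, adjusted to 0.133.

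MT-ATP8 and MT-ATP6 are read from 1 message whose reading frames overlap by 46 bp, shown here because reads in it belong to both genes. Capitals mark the start codon of MT-ATP6 and the stop codon of MT-ATP8.
MT-ATP8 and MT-ATP6 overlap (chrM:8527-8572, plus strand, GRCh38): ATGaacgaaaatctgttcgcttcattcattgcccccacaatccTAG
Counts of MT-ATP8 per MT-ATP6 count were 0.651, 0.651 and 0.634 with DMSO and 0.651, 0.650 and 0.677 with OTSSP167. These values overlapped between the groups (2-sided exact permutation p = 0.5, adjusted p = 0.571).

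**Figure D5:**
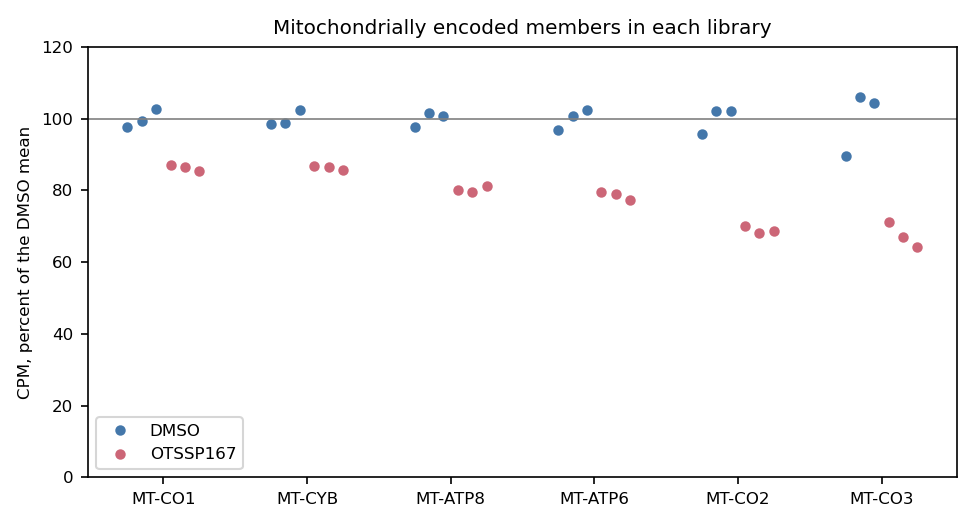
CPM of the 6 mitochondrially encoded members in each library as a percent of their DMSO mean, blue for DMSO and red for OTSSP167. In every member the 3 OTSSP167 points lie below the 3 DMSO points, least for MT-CO1 and MT-CYB and most for MT-CO2 and MT-CO3.

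Genes that build or serve these complexes were counted from further lists, to be read against the 23.8% of all genes tested that rose and the 22.3% that fell; no list was tested against the other genes. Of 7 assembly factors of complex III, 2 rose, 2 fell and 3 did not pass, with a median of 0.03, so their shares were near those of all genes. UQCC1 and UQCC3 rose by 1.26 and 0.92 (log2, edgeR adjusted p = 0.0042 and 0.00123). UQCC2 fell by 1.66 and LYRM7, which guides the Rieske protein, by 1.74 (log2, edgeR adjusted p = 0.00103 and 0.000115). LYRM7 was at 67.7, 69.4 and 65.9 CPM with DMSO and 22.3, 19.5 and 19.0 CPM with OTSSP167, while the Rieske gene UQCRFS1 rose.

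Of 32 genes listed for complex IV assembly, 14 fell, 5 rose and 13 did not pass, with a median of -0.30. The list holds NDUFA4 (log2 -0.31), also counted above by its complex I symbol. PET100 went from 16.8 ± 1.85 to 3.26 ± 0.297 CPM (log2 -2.36, edgeR adjusted p = 0.000228) and HIGD1A, which associates with the enzyme, from 54.8 ± 1.23 to 19.0 ± 0.791 CPM (log2 -1.53, edgeR adjusted p = 0.000105). SCO1 and COX19, both of the copper supply, rose by 0.72 and 1.19 (log2, edgeR adjusted p = 0.000336 and 0.000874). Other copper genes of the list went both ways. SCO2 rose by 0.60, while COX17 and COX11 fell by 1.69 and 1.04 (log2, edgeR adjusted p = 0.00754, 0.00139 and 0.00211). Of 8 genes for assembly, further subunits and the inhibitor of ATP synthase, 3 fell, 1 rose and 4 did not pass, with a median of -0.32. TMEM242, which helps assemble the c ring, rose by 0.92 (log2, edgeR adjusted p = 0.000463), and the small subunit gene USMG5 fell by 0.70 (log2, edgeR adjusted p = 0.00106). ATPAF2, a chaperone of the alpha subunit, fell by 0.37 (log2, edgeR adjusted p = 0.036), but not in the fits without any single library other than OTSSP167 replicate 2 (adjusted p between 0.0678 and 0.0934) or by upper quartiles (0.089).

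Of 8 genes of complex II, which feeds electrons to complex III, 5 fell, 0 rose and 3 did not pass, with a median of -0.53. SDHA, its flavoprotein, was at 162, 162 and 164 CPM with DMSO and 24.9, 16.2 and 23.4 CPM with OTSSP167 (log2 -2.92, SE 0.18, edgeR adjusted p = 0.000198). SDHC, a membrane anchor, fell by 0.59 (log2, edgeR adjusted p = 0.0006). Of 24 genes for mitochondrial transcription and RNA processing, 11 fell, 2 rose and 11 did not pass, with a median of -0.43. TFAM packages mitochondrial DNA and is a factor in its transcription. It rose from 204 ± 4.78 to 277 ± 7.54 CPM (log2 0.44, edgeR adjusted p = 0.000447), and MTERF1 rose by 0.74 (log2, edgeR adjusted p = 0.00178). SSBP1, which coats single-stranded mitochondrial DNA, fell from 82.7 ± 6.34 to 17.5 ± 1.23 CPM (log2 -2.24, edgeR adjusted p = 7.09e-05), and FASTKD2, an RNA-binding protein of the matrix, from 75.0 ± 1.89 to 21.0 ± 1.47 CPM (log2 -1.84, edgeR adjusted p = 7.44e-05). Of 14 transcription regulators of respiratory genes, 2 rose, 3 fell and 9 did not pass, with a median of -0.11, shares no higher than those of all genes tested. GABPB2 and YY1 rose by 1.46 and 0.36, and MYCN and ESRRG fell by 0.75 and 1.18 (log2, edgeR adjusted p = 0.000863, 0.000398, 5.74e-06 and 0.000696).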

How the data were processed

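RNA of NGP cells was sequenced from TRIzol extracts with a SMARTer mRNA kit, per the labels' protocols. The authors deposited whole-number counts per gene symbol for 6 libraries, 3 per group, in 1 table of 19863 rows. Per the submitters' processing notes, FastQC 0.11.2, HISAT2 2.1.0, StringTie 1.3.5 and the build GRCh38.p13 were used. The counting step, annotation and strand setting were not stated in the sources used, so reads of overlapping or copied genes may be divided in an unknown way.

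The whole table was fitted with edgeR 4.0.16 in R 4.3.3: filterByExpr, TMM scaling, a robust quasi-likelihood fit of treatment with no other term, Benjamini-Hochberg adjustment over 14402 genes and a threshold of 0.05. A second edgeR test asked for a change beyond 1.5-fold. CPM are scaled by TMM factors (0.993 to 1.008), and errors are SD over 3 libraries. The SE is the log2 fold change divided by the square root of F. The fit was tested on simulated data. Floors cover counting error only. No 2 libraries were copies: chi-square statistics comparing replicates gene by gene averaged 90.5 to 112, against 1 under pure sampling noise.

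The members and gene lists were chosen with earlier results of these data known. Named were mitochondrial members, the 4 smallest p-values per complex and direction, paralogs, CYC1, CYCS and the 2 smallest per further list and direction. Other members, other genes of the lists and neighbouring genes were described after their values were seen. Positions come from GENCODE 29 on GRCh38, and promoters and current symbols from RefSeq. Alternatives were DESeq2 1.42.0, limma-voom (limma 3.58.1), other scalings and filters, a replicate block, and leaving out each library.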

Additional observations from a re-analysis of the deposited data

How the results depend on the processing

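The counts of members called (29 lower, 7 higher) ranged from 26 to 28 and from 5 to 6 when each library was left out in turn, and those over all genes (6638) from 5540 to 5870. Asking for a change beyond 1.5-fold left 9 lower and 2 higher members and 2826 genes. Deviations of same-numbered libraries from their group means had correlations of 0.023, 0.0408 and 0.0115, and those of other pairs lay between -0.0307 and 0.00734. All were small, and whether replicate numbers pair the libraries was not tested. A fit with the replicate block called 4 members higher, 24 lower and 4887 genes. COX8C had adjusted p = 0.0547 in that fit, the only alternative run for it in which it did not pass. DESeq2 called 7 higher and 31 lower, and limma-voom 7 and 30. The nuclear-encoded median of -0.23 became -0.17 with a minimum of 1 CPM in all libraries and -0.13 with upper quartile scaling. The mitochondrially encoded median of -0.33 became -0.27 with that minimum, -0.23 with upper quartiles, -0.31 with DESeq2 or its size factors, -0.34 with library size alone, -0.35 with no filter, and -0.36 to -0.33 without single libraries.

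Signs turned for 5 members near 0 or with few counts. COX6B2 (-0.05) became 0.051 with upper quartiles. Without single libraries, COX6B2 ranged from -0.54 to 0.32, COX7A1 from -0.67 to 0.17, CYC1 from -0.017 to 0.044, ATP5B from -0.0018 to 0.019 and ATP5D from -0.00024 to 0.58. Of 49 members, 12 kept direction and side of the threshold under every alternative, the 1.5-fold test included. The causes were not tested. With 3 libraries per group, the spread between libraries differed widely among members above 10 CPM. DMSO libraries of ATP5S differed 7.25-fold, while those of ATP5B lay between 1566 and 1569 CPM. Whether this spread or the depth limits precision was not tested.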

Other observations

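Genes that lie just past members were looked at after values were seen. A protein-coding gene on the same strand starts within 10000 bp downstream of 13 members, and of these genes 5 rose, 1 fell and 7 did not pass edgeR's test, against 23.8% of all genes tested that rose and 22.3% that fell. UPK1A, 7655 bp past COX6B1, had 0, 0 and 4 counts with DMSO and 88, 133 and 88 with OTSSP167 (edgeR adjusted p = 0.00539). COL7A1, 3735 bp past UQCRC1, was at 3.71, 3.77 and 2.81 CPM with DMSO and 15.4, 13.8 and 14.8 CPM with OTSSP167 (4.28-fold, edgeR adjusted p = 0.000469), while UQCRC1 fell. KMT2A past ATP5L, MIDN past ATP5D and MBD3 past UQCR11 rose by 1.39, 1.12 and 0.27 (log2, edgeR adjusted p = 0.00245, 0.0407 and 0.00272). PSTPIP2 past ATP5A1 fell by 1.42 (edgeR adjusted p = 0.00238).

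MIDN was at 212, 94.3 and 222 CPM with DMSO, and DMSO replicate 2 was the lowest of the controls for both MIDN and ATP5D. With OTSSP167, MIDN was at 420, 369 and 359 CPM, while ATP5D was at 218, 218 and 98.1 CPM, so the low ATP5D level of replicate 3 had no like drop in MIDN. PDZD9, which lies 205 bp past UQCRC2 on the opposite strand, had 35 counts over the DMSO libraries and 261 over the OTSSP167 libraries (log2 3.00, edgeR adjusted p = 0.000486). In the mitochondrial genome, the row MT-ND4 held 11 to 12 counts in each library, while MT-ND4L, whose reading frame it overlaps, held 182562 to 292600.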
